A study of Homo sapiens with 3 samples.

Results

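Propranolol blocks beta-adrenergic receptors, and 9 genes of the route on which those receptors act are described here: the receptor gene ADRB1, the stimulatory G protein gene GNAS, the adenylyl cyclase genes ADCY3, ADCY6, ADCY7 and ADCY9, the protein kinase A (PKA) genes PRKACA and PRKAR1A, and the phosphodiesterase gene PDE4D. They were chosen by gene symbol as the target of the drug and the cAMP machinery behind it, and all 9 were found among the 20344 genes of the deposited tables. The study measured messenger RNA by sequencing in A375 cells, a human melanoma line with mutant BRAF. One library titled A375-VR, Prop is set here against one titled A375, Prop, and the series' other sample, A375-VR, DMSO, was not used here. The extraction protocol, which is the same for all 3 samples, names A375-VR cells given DMSO or 20 µM propranolol during 24 h, whereas the title and cell line label of the A375 library name A375, and the cells and treatment of that library therefore rest on labels that disagree. The A375-VR, DMSO sample also carries the cell line label A375, so that label alone does not separate A375 from A375-VR cells. The series title concerns resistance to vemurafenib, a BRAF inhibitor, and the labels do not spell out VR. The sources used here do not say how the A375-VR cells were derived or whether they are 1 clone. Cell line, treatment, culture and library preparation cannot be told apart between the libraries. There was 1 library per group, so no test of a condition was possible, and intervals cover counting error only.

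As background, noradrenaline or adrenaline bound to a beta-adrenergic receptor switches on the stimulatory G protein alpha subunit (Gs alpha), which activates membrane adenylyl cyclases. The cyclases make cAMP. cAMP binds the regulatory subunits of PKA and frees the catalytic subunits, which phosphorylate proteins in the cytoplasm and the transcription factor CREB in the nucleus. Phosphodiesterases, among them the PDE4 enzymes, break cAMP down and end the signal. In pigment cells the same route carries the signal of the melanocortin receptor to the pigment programme.

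Levels are given as FPKM, fragments divided by gene length and by the size of the library. Comparing levels of different genes within a library depends on whether the length used fits the transcripts present. The annotation that gave the lengths is not known, and this was not checked. The shares, ratios between genes and orders by level below carry that limit. A gene was kept when it had at least 1 FPKM in at least 1 library, which 10761 genes did. Differences are log2(FPKM + 1) in the A375-VR library minus the same in the A375 library, which understates the change of low genes, and genes 1 or more apart on this scale are called 2-fold higher or lower. Folds are plain ratios of FPKM. Their 95% exact Clopper-Pearson intervals come from whole reads recovered from the FPKM values. The totals behind the scaling were 16438482 in the A375-VR library and 17811339 in the A375 library. The median gene past the filter had 620.5 recovered reads in the A375-VR library and 604 in the A375 library. Of 8 melanocyte lineage markers, 3 passed the filter. Their neural crest regulator SOX10 had 149.6 FPKM in the A375-VR library and 65.3 FPKM in the A375 library, and the pigment enzyme gene TYR was at 0 in both. The 4 leukocyte markers were at 0 in both libraries, none of 3 endothelial markers passed the filter, and 2 of 5 fibroblast and 2 of 4 keratinocyte markers did. MITF, the regulator of the pigment programme, lay the other way, with 3.47 FPKM in the A375-VR library and 6.47 FPKM in the A375 library, a fold of 0.537 (0.476 to 0.605). The summed level of the melanocyte markers, most of it SOX10, was 166.4 FPKM in the A375-VR library and 75.8 FPKM in the A375 library, and its part in the differences below was not tested. In a bulk library, fewer cells of a type and less RNA per cell cannot be told apart.

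Of the 9 genes, 7 had entries in the RefSeq promoter table (GRCh38.p14), with 25 windows of the 250 bases before a start site. The windows were searched on both strands for the cAMP response element TGACGTCA, which CREB binds, and for its core TGACG, which lies within the full element. The full element was in 1 of the 25 windows, against 1.65% of 35116 windows of the same length over all genes, and the core in 9 of 25, against 21.2%. Windows of one gene can overlap and share letters. The core was in windows of ADCY3, ADRB1, GNAS, PDE4D, PRKACA and PRKAR1A, genes with differences in either direction. The 4 windows below show a match, in capitals, in PRKAR1A, GNAS and PDE4D, with higher levels in the A375-VR library, and in ADCY3, with a lower level there. They are written 5′ to 3′ on the strand of the gene, and each was found once on its chromosome in GRCh37. A match is a description of the letters and not a site of binding. The core was in 3 of 6 windows of GNAS, 2 of 5 of PRKAR1A, 1 of 8 of PDE4D and 1 of 2 of ADCY3. Which GNAS transcript starts after the window shown was not determined, so that window cannot be read as the Gs alpha promoter.
PRKAR1A, the full element, chr17:66508321-66508570, plus strand: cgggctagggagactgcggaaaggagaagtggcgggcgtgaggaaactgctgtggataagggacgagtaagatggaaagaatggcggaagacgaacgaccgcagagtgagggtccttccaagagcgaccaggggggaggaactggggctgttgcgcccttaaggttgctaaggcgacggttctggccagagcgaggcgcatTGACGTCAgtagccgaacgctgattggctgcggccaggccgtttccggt
GNAS, the core read on the opposite strand, chr20:57463985-57464234, plus strand: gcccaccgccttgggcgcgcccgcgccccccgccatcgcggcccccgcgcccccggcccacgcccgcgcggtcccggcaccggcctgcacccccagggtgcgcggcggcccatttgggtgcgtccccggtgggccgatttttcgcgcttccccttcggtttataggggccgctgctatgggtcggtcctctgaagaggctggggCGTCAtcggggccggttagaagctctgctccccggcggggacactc
PDE4D, the core, chr5:58883452-58883701, minus strand: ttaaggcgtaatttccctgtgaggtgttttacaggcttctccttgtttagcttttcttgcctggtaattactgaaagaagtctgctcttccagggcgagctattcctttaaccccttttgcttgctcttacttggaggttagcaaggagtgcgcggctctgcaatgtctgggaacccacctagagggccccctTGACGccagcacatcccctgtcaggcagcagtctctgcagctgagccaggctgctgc
ADCY3, the core, chr2:25142455-25142704, minus strand: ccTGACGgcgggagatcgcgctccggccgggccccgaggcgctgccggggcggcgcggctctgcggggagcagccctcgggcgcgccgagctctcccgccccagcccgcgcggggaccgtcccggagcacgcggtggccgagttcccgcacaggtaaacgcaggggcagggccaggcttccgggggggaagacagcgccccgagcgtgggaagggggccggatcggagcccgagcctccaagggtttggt

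ADRB1 (Entrez 153), the beta-1 receptor of the heart and kidney, was close to undetected in both libraries. Its position is chromosome 10, 115803625 to 115806663, on the plus strand of GRCh37. ADRB1 had 0.128 FPKM in the A375-VR library and 0.0394 FPKM in the A375 library. These levels rested on 6 recovered reads in the A375-VR library and 2 in the A375 library, and ADRB1 was the only one of the 9 genes that did not pass the filter. With so few reads the interval of the fold, 0.581 to 32.9 around 3.25, spanned 1.

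Of the 8 adrenergic receptor genes reported here, 5 were listed at 0 in both libraries, ADRB3 among them, and only ADRA1B passed the filter. ADRA1B, an alpha-1 receptor that couples to another G protein class, had 0.747 FPKM in the A375-VR library and 1.46 FPKM in the A375 library, a fold of 0.511 (0.327 to 0.783), and passed the filter only through the A375 library. Without the filter the median difference of the list was 0.

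GNAS (Entrez 2778), which encodes Gs alpha, had the highest level of the 9 genes and the largest difference among them. It had 162 FPKM in the A375-VR library and 86.3 FPKM in the A375 library. The fold was 1.88 (1.85 to 1.91) and the difference 0.90, above that of 95.9% of genes past the filter. Its level was above that of 98.98% of all genes in the A375-VR library and 97.7% in the A375 library. GNAS lies on chromosome 20 at 57414773 to 57486247 on the plus strand of GRCh37, a locus with several first exons that also encodes the proteins XL alpha s and NESP55, and a single value per gene cannot tell these transcripts apart. The antisense gene GNAS-AS1 shares 1127 exon bases with it, and the sources used here do not say whether counting used strand.

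The other G protein genes lay on both sides of 0. GNAI2, an inhibitory alpha subunit that lowers cyclase activity and was named after its values were seen, had 60.2 FPKM in the A375-VR library and 59.6 FPKM in the A375 library. The ratio of GNAS to GNAI2 was 2.70 in the A375-VR library and 1.45 in the A375 library. GNG2, a gamma subunit, was the one G protein gene at least 2-fold higher, with 5.44 FPKM in the A375-VR library and 2.17 FPKM in the A375 library, a fold of 2.51 (2.16 to 2.93). The beta subunit GNB1 had a fold of 0.905 (0.876 to 0.936) and GNB4 of 1.18 (1.06 to 1.31). The G protein list, which includes GNAS itself and the chaperone gene RIC8B, had 11 genes past the filter. Of these, 3 had an interval above 1 (GNAS, GNG2 and GNB4) and 3 below it, against 43.6% and 26.4% of all genes. The median difference of the 11 was 0.045, against 0.096 over all genes past the filter. It was -0.050 after scaling by the median ratio, against 0 over all genes. With the trimmed mean it was -0.051, against -0.0019.

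**Figure D1:**
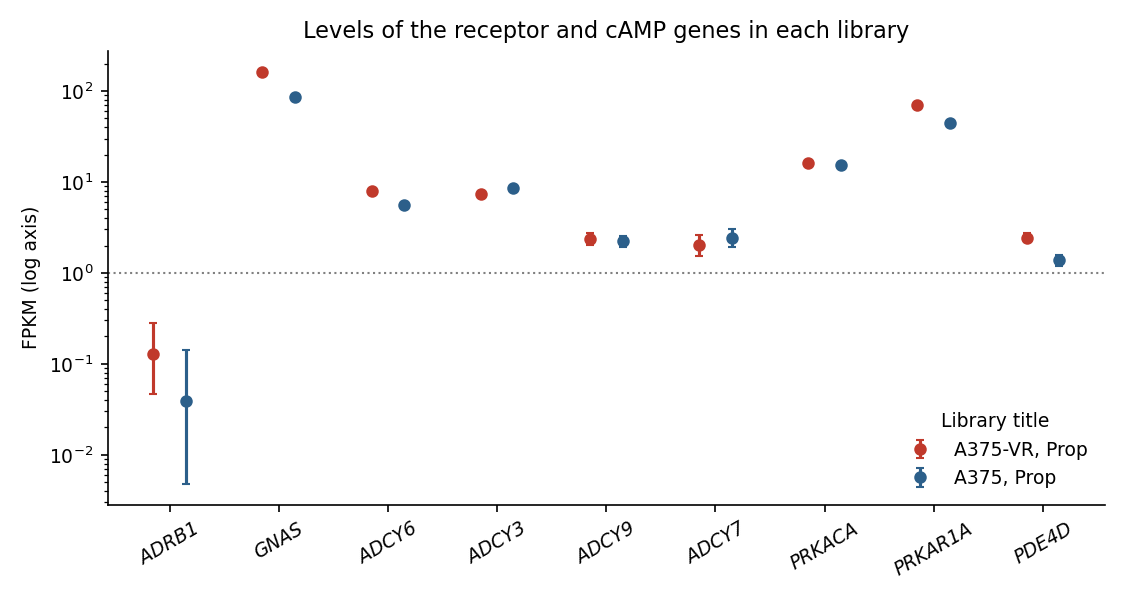
FPKM of the 9 genes on a log axis in the A375-VR library (left of each pair, red) and the A375 library (blue), 1 library each. Bars are 95% exact Poisson intervals on recovered reads, and the dotted line marks 1 FPKM. GNAS, PRKAR1A and PDE4D stand higher in the A375-VR library, while ADRB1 lies under the filter in both.

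Of the 10 adenylyl cyclase genes, the 4 described here were the only ones past the filter, and their sum was nearly equal in the libraries while their proportions were not. The summed FPKM of all 10 cyclase genes was 19.8 in the A375-VR library and 18.9 in the A375 library, a ratio of 1.05. ADCY2, ADCY4, ADCY8 and ADCY10 were listed at 0 in both, and ADCY1 and ADCY5 had at most 0.203 FPKM.

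ADCY6 (Entrez 112, chromosome 12 at 49159977 to 49182872, minus strand), a cyclase inhibited by calcium and by PKA, was the one cyclase higher in the A375-VR library beyond counting error. It had 7.85 FPKM in the A375-VR library and 5.53 FPKM in the A375 library, a fold of 1.42 (1.296 to 1.56) and a difference of 0.44. ADCY3 (Entrez 109, chromosome 2 at 25042038 to 25143106, minus strand), best known as the cyclase of smell receptors, lay the other way. It had 7.32 FPKM in the A375-VR library and 8.53 FPKM in the A375 library, a fold of 0.859 (0.778 to 0.947) and a difference of -0.20. ADCY3 shares 1488 exon bases with CENPO on the opposite strand, and ADCY6 shares 713 with a long noncoding gene on the opposite strand.

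ADCY9 (Entrez 115, chromosome 16 at 4003388 to 4166443, minus strand), a cyclase that responds little to the plant compound forskolin, had 2.36 FPKM in the A375-VR library and 2.22 FPKM in the A375 library. The interval of its fold, 1.06 (0.870 to 1.297), spanned 1. ADCY7 (Entrez 113, chromosome 16 at 50280048 to 50352046, plus strand), a cyclase that G protein beta-gamma subunits can stimulate, had 2.04 FPKM in the A375-VR library and 2.44 FPKM in the A375 library. That of its fold, 0.838 (0.584 to 1.20), also spanned 1, and ADCY7 shares 3593 exon bases with BRD7 on the opposite strand.

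The proportions of ADCY6 and ADCY3 therefore differed, but which of them was higher in the A375-VR library lay within counting error. In the A375-VR library ADCY6 made up 40.1% of the FPKM of the 4 cyclases and ADCY3 37.4%, and the intervals of their levels, 7.39 to 8.33 FPKM for ADCY6 and 6.80 to 7.87 FPKM for ADCY3, overlapped. In the A375 library ADCY6 made up 29.5% and ADCY3 45.6%, and the intervals, 5.16 to 5.92 FPKM for ADCY6 and 7.98 to 9.10 FPKM for ADCY3, did not overlap. The ratio of ADCY6 to ADCY3 was 1.07 in the A375-VR library and 0.648 in the A375 library. ADCY9 and ADCY7 took 12.1% and 10.4% in the A375-VR library and 11.9% and 13.04% in the A375 library, and their intervals overlapped in each.

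**Figure D2:**
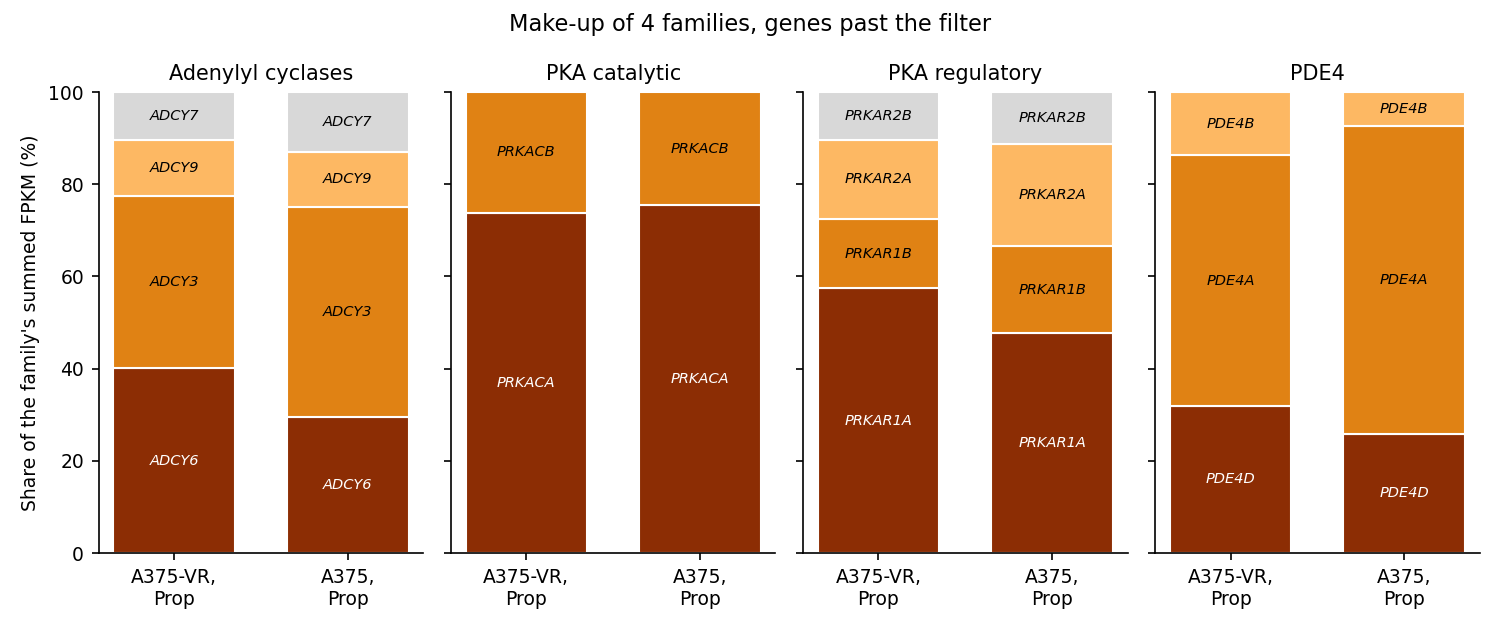
Share of the summed FPKM of each family, in percent, taken by each gene past the filter, with the A375-VR library left and the A375 library right in each panel. ADCY6 holds 40.1% of the cyclases in the A375-VR library and 29.5% in the A375 library, and PRKAR1A holds 57.4% of the PKA regulatory subunits in the A375-VR library and 47.7% in the A375 library.

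Among the PKA genes, PRKAR1A had the largest difference. PRKAR1A (Entrez 5573, chromosome 17 at 66507921 to 66547460, plus strand), the type I alpha regulatory subunit that holds the catalytic subunits inactive until cAMP binds, had 69.3 FPKM in the A375-VR library and 44.1 FPKM in the A375 library. The fold was 1.57 (1.52 to 1.63) and the difference 0.64, above that of 90.4% of genes past the filter. PRKAR1A shares 546 exon bases with a long noncoding gene on the same strand. PRKACA (Entrez 5566, chromosome 19 at 14202500 to 14228896, minus strand), the main catalytic subunit, had 16.2 FPKM in the A375-VR library and 15.5 FPKM in the A375 library. The fold was 1.05, with an interval that spanned 1 (0.981 to 1.12). PRKACA shares 153 exon bases with the coding gene SMIM46 on the same strand.

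Among the paralogs, the catalytic subunit PRKACB had a fold of 1.15 (1.03 to 1.29) and the regulatory subunit PRKAR2B of 1.21 (1.10 to 1.33). PRKAR1B and PRKAR2A had folds of 1.04 (0.966 to 1.12) and 1.01 (0.951 to 1.07), both with intervals that spanned 1. PRKACA made up 73.8% of the catalytic FPKM in the A375-VR library and 75.5% in the A375 library. PRKAR1A made up 57.4% of the regulatory FPKM in the A375-VR library and 47.7% in the A375 library. The sum of the regulatory subunits was 5.48 times that of the catalytic subunits in the A375-VR library and 4.51 times in the A375 library. The ratio of PRKAR1A to PRKACA was 4.26 in the A375-VR library and 2.85 in the A375 library.

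PDE4D (Entrez 5144, chromosome 5 at 58264865 to 59817947, minus strand) encodes a cAMP phosphodiesterase that binds beta-arrestin and can be brought to active beta receptors. It had 2.44 FPKM in the A375-VR library and 1.37 FPKM in the A375 library, on 327 recovered reads in the A375-VR library and 199 in the A375 library. The fold was 1.78 (1.49 to 2.13) and the difference 0.54, above that of 86.6% of genes past the filter. PDE4D shares 227 exon bases with the long noncoding gene PART1 on the opposite strand. In the A375-VR library the intervals of the levels of PDE4D, ADCY9 and ADCY7 overlapped, whereas in the A375 library the interval of PDE4D, 1.19 to 1.57 FPKM, lay below those of both cyclases.

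The other PDE4 genes past the filter also had differences above 0. PDE4A, the most abundant of them, had 4.14 FPKM in the A375-VR library and 3.53 FPKM in the A375 library, a fold of 1.17 with an interval from 0.966 to 1.42. PDE4B had 1.05 FPKM in the A375-VR library and 0.390 FPKM in the A375 library, a fold of 2.69 (1.98 to 3.69), and passed the filter only through the A375-VR library. PDE4D made up 32.0% of the PDE4 FPKM in the A375-VR library and 25.9% in the A375 library. Of 16 phosphodiesterase genes, 7 passed the filter and 4 of these 7 had an interval above 1, against 43.6% of all genes. Their median difference was 0.52, but it was 0.15 without the filter and 0.078 at FPKM 5. The cAMP-specific PDE8A had a fold of 1.55 (1.35 to 1.78) and PDE2A, which cGMP stimulates, of 1.89 (1.504 to 2.38). PDE2A, like PDE4B, passed the filter only through the A375-VR library, so that these 2 of the 4 had to be higher there. PDE1C, a calmodulin-dependent enzyme named after its values were seen, was the one with an interval below 1, with 9.08 FPKM in the A375-VR library and 12.2 FPKM in the A375 library.

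Each of the 8 genes past the filter had at least 1 FPKM in both libraries. In all, 4 of the 8 genes past the filter had an interval above 1 (GNAS, ADCY6, PRKAR1A and PDE4D) and 1 below it (ADCY3). The intervals of the other 3 (ADCY7, ADCY9 and PRKACA) spanned 1, though that of ADCY7 may be too wide. Over all genes 43.6% had an interval above 1 and 26.4% below it, so these counts lie near the background. By sign alone, 6 of the 8 had a difference above 0, where 60.3% of all genes did. None of the 8 was 2-fold higher or 2-fold lower, where 3.14% of all genes were 2-fold higher and 0.613% lower. Their median difference was 0.25, against 0.096 over all genes past the filter. The median of all genes moved to -0.0019 with the trimmed mean, and relative to the median of all genes as deposited the differences were 0.81 for GNAS, 0.54 for PRKAR1A, 0.44 for PDE4D and 0.34 for ADCY6. For ADCY9 and PRKACA they were -0.035 and -0.029. The order by level was GNAS, PRKAR1A and PRKACA first in both libraries and ADRB1 last in both.

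**Figure D3:**
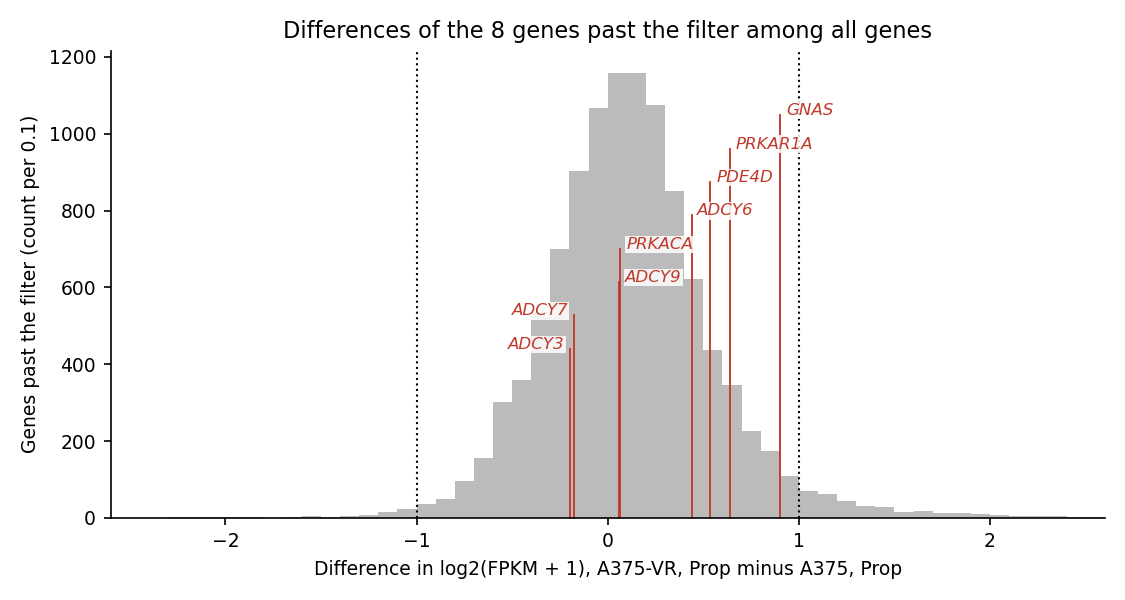
Number of genes past the filter per 0.1 of the difference in log2(FPKM + 1), A375-VR library minus A375 library (grey), with the 8 genes past the filter as red lines whose height has no meaning. Dotted lines mark 2-fold; GNAS lies closest to the upper one at 0.90, and ADCY3 is the lowest at -0.20.

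**Figure D4:**
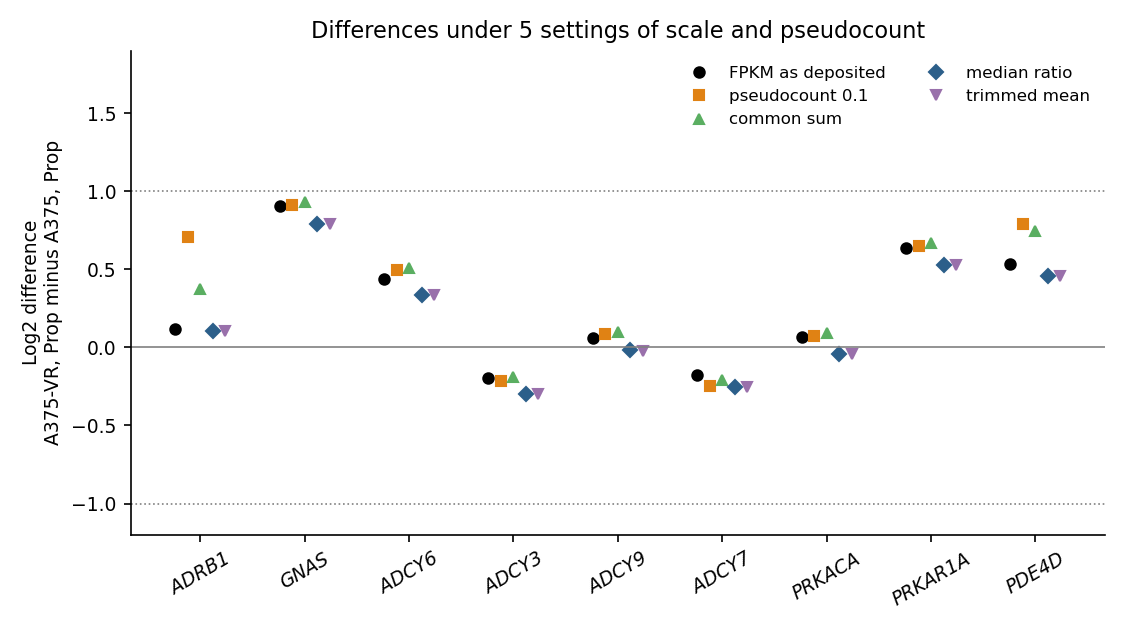
Log2 difference of each of the 9 genes, A375-VR library minus A375 library, as deposited with a pseudocount of 1, with a pseudocount of 0.1, and after 3 other scalings. GNAS, ADCY6, PRKAR1A and PDE4D are above 0 and ADCY3 and ADCY7 below 0 in all 5 settings, while ADCY9 and PRKACA change sign with the median ratio and the trimmed mean.

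GRK6, a kinase that phosphorylates active receptors, had 8.93 FPKM in the A375-VR library and 14.95 FPKM in the A375 library, a fold of 0.597 (0.541 to 0.658). GRK5, a related kinase, lay the other way with a fold of 1.48 (1.304 to 1.69), and RGS2, which dampens G protein signals, had a fold of 0.701 (0.590 to 0.831). Of 6 such genes past the filter, which include the beta-arrestins, 2 had an interval above 1 and 3 below it, against 43.6% and 26.4% of all genes. The receptor kinase GRK2, named after its values were seen, was the 1 whose interval spanned 1, with a fold of 1.04 (0.971 to 1.12). PKIB, an inhibitor peptide that binds the catalytic subunits of PKA, passed the filter only through the A375-VR library and was at least 2-fold higher, with 2.91 FPKM in the A375-VR library and 0.278 FPKM in the A375 library. That was 164 recovered reads in the A375-VR library and 17 in the A375 library, and the fold was 10.5 (6.33 to 18.4).

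Of 10 CREB factors, coactivators and their kinases past the filter, 8 had a difference above 0, 5 had an interval above 1 and 2 below it, beside 60.3%, 43.6% and 26.4% of all genes. Their median difference was 0.12, and it was 0.39 at FPKM 5, 0.026 with the median ratio and 0.024 with the trimmed mean. CREM, a CREB relative whose short form is itself induced by cAMP, had 11.2 FPKM in the A375-VR library and 5.44 FPKM in the A375 library, a fold of 2.06 (1.85 to 2.28). SIK2, a kinase that holds CREB coactivators in the cytoplasm, had a fold of 1.98 (1.79 to 2.19), and the coactivator CRTC1 of 1.37 (1.23 to 1.54). CREB1, also chosen after its values were seen, had a fold of 1.11, with an interval from 0.9996 to 1.23. All 5 cAMP-induced genes past the filter had intervals above 1, against 43.6% of all genes. Of these 5, NR4A2 and the immediate early gene FOS passed only through the A375-VR library, so that they had to be higher there. FOS was named after its values were seen. The nuclear receptor genes NR4A1 and NR4A2 were at least 2-fold higher, and the phosphatase gene DUSP1 had 16.2 FPKM in the A375-VR library and 10.3 FPKM in the A375 library. These genes also respond to other signals.

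**Figure D5:**
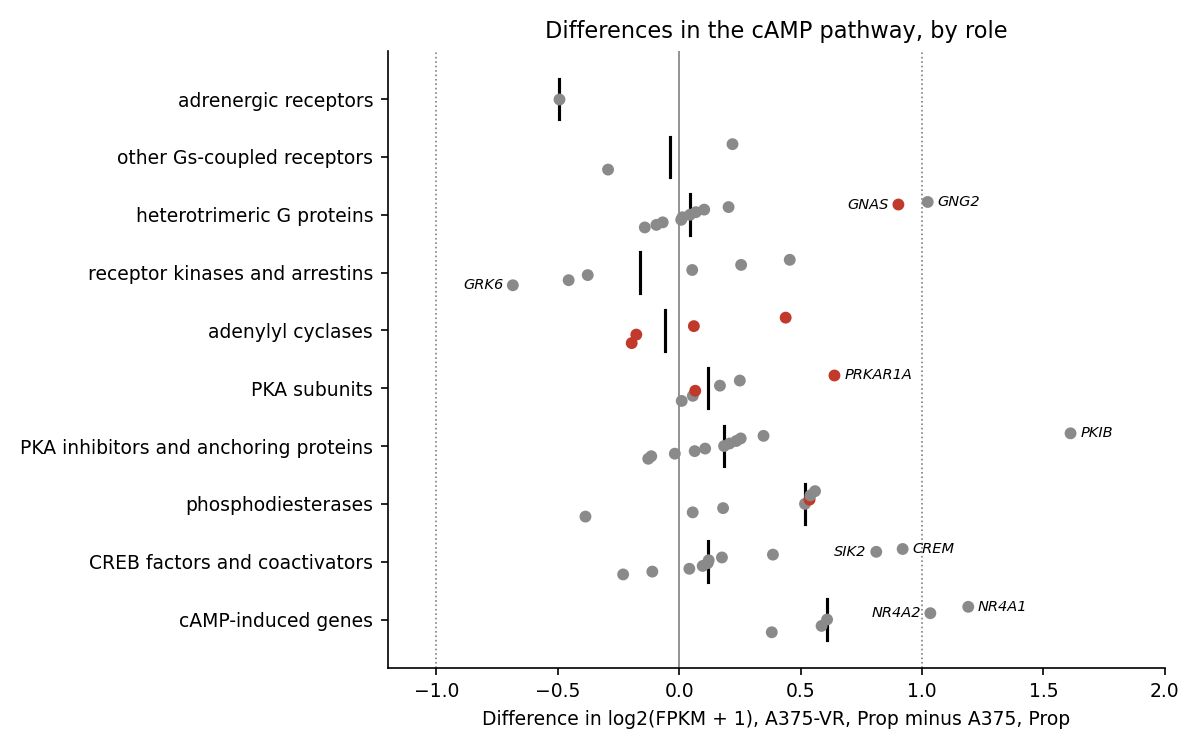
Difference in log2(FPKM + 1), A375-VR library minus A375 library, of the genes reported here that passed the filter in 10 lists of the pathway, 1 point a gene, with the described genes in red and a black bar at the median of each list. The cAMP-induced genes and all but one phosphodiesterase lie above 0, and ADRA1B, the one adrenergic receptor shown, below 0; some of these genes passed the filter only through the library where they are higher.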

How the data were processed

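The deposited values are FPKM, made by the authors. Per the series design text, the libraries were stranded TruSeq mRNA, sequencing was paired at 150 bp (HiSeq 2000), and TopHat 1.3.3 placed reads on GRCh37; the sources used here do not give the counting tool, the annotation or the use of strand. Log2(FPKM + 1) was computed from the deposited FPKM, and genes with at least 1 FPKM in at least 1 library were kept. With 1 library per group no p-value is given, and whether any difference exceeds the spread between cultures is not known.

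The ratio of the library totals followed from genes with equal reads. Their common factor was chosen, of 12 multiples, as the one that made most of 3000 gene lengths equal to GENCODE 44 exon lengths (16.5%, next best 11.2%). Recovered reads are the smallest whole numbers that give both values of a gene, so true reads can be multiples and intervals too wide. PCR duplicates can make them too narrow. The ratio of the totals, the recovered reads and the 2-fold calls were tested on simulated data. Recovered reads had only to divide the true reads there, and the common factor was taken as known.

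The genes and the pathway lists were chosen with earlier results of these data known. Named genes are the 9 members, paralogs of members and genes that share exon bases with them. List genes 2-fold apart, and up to 3 others per list with the largest difference, are also named. SOX10, MITF and TYR come from the list of 8 melanocyte lineage markers. The rest are said to be named after their values were seen. One gene of the pathway is not reported here. Promoter sequences are RefSeq's and were matched to GRCh37. Python 3.11.15, SciPy 1.17.1 and pandas 2.3.3 were used.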

Additional observations from a re-analysis of the deposited data

How the results depend on the processing

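The alternatives were a pseudocount of 0.1, no filter, a filter at FPKM 5, and scaling to a common sum, by the median ratio or by a trimmed mean. In each of them no member was 2-fold higher and none 2-fold lower. ADCY9 turned to -0.019 with the median ratio and -0.020 with the trimmed mean, and PRKACA to -0.041 and -0.043. The median difference of the members was 0.12 without the filter, which adds ADRB1, and 0.44 with the filter at FPKM 5, which leaves fewer of them. The median of the G protein list turned to -0.050 and -0.051 with the median ratio and trimmed mean, where that of all genes was 0 and -0.0019. The median of receptor kinases and arrestins turned to 0.054 without the filter, and that of the cyclases to 0.12 at FPKM 5, where ADCY3 and ADCY6 are the ones left. Over all genes, 338 were 2-fold higher and 66 lower (83.7% higher) as deposited; the counts were 689 and 140 with the pseudocount of 0.1 and 624 and 104 with the common sum, and 101 were lower with the median ratio and with the trimmed mean (73.0% and 72.9% higher). For these counts the cause was not tested. No PDE4 gene passed FPKM 5, so their shares have no value there. No paired analysis was possible because each group has 1 library. Depth limits ADRB1 most, with 6 recovered reads in the A375-VR library and 2 in the A375 library.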

Other observations

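Genes that carry or place cAMP signals outside the core route lay on both sides of 0. POPDC3, a membrane protein of the Popeye family, whose members bind cAMP, had 27.3 FPKM in the A375-VR library and 19.1 FPKM in the A375 library, a fold of 1.43 (1.29 to 1.59). ABCC4, a transporter that can export cAMP, had 6.39 FPKM in the A375-VR library and 6.28 FPKM in the A375 library. The EPAC genes RAPGEF3 and RAPGEF4, exchange factors that cAMP activates, were named after their values were seen and did not pass the filter. Of the anchoring proteins that hold PKA in place, AKAP10 had a fold of 1.31 (1.18 to 1.44) and AKAP13 of 1.298 (1.12 to 1.51). Of 11 PKA inhibitors and anchoring proteins past the filter, 5 had an interval above 1 and 1 below it, near the shares of all genes (43.6% and 26.4%). The one below was the anchoring protein AKAP8, chosen after its values were seen, which had a fold of 0.919 (0.847 to 0.997). The median difference of the 11 was 0.19, against 0.086 without the filter or with it at FPKM 5, 0.074 with the median ratio and 0.073 with the trimmed mean.

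Among other receptors that couple to Gs alpha, a pair passed the filter. ADORA2B, an adenosine receptor, had 16.1 FPKM in the A375-VR library and 19.9 FPKM in the A375 library, a fold of 0.807 (0.730 to 0.893). VIPR1, a receptor for vasoactive intestinal peptide, had 9.51 FPKM in the A375-VR library and 8.02 FPKM in the A375 library, a fold of 1.19 (1.09 to 1.29). MC1R, the melanocortin receptor of pigment cells, was named after its values were seen and did not pass the filter, with 0.896 FPKM in the A375-VR library and 0.474 FPKM in the A375 library. PDE10A, also under the filter and named after its values were seen, had 0.925 FPKM in the A375-VR library and 0.235 FPKM in the A375 library. The fold was 3.95 (3.12 to 5.03), on 335 recovered reads in the A375-VR library and 92 in the A375 library.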
